A study of Mus musculus with 12 samples.

Results

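The regions described here are the m6A peaks that the deposited lists of circular RNA (circRNA) peaks share with the mRNA peak list of the same library. A peak was a member when its peak identifier stood in both lists of 1 library. Of 7491 peaks in the 6 circRNA lists, 6311 were members. They lay on 991 of the 1112 circRNAs in the lists, in 849 host gene symbols, and merged into 1873 regions on 1 strand. Of the 6311, 44 had no host symbol. The other 1180 peaks were absent from the mRNA lists. A member is 1 called peak printed under both kinds of RNA, with the same p score in each, so reads from a circle and reads from the linear transcript of the same exons cannot be told apart.

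A circRNA forms when the splicing machinery joins the end of a downstream exon to the start of an upstream one, which leaves a closed loop with no cap and no tail. N6-methyladenosine (m6A) is the most common internal base modification of mRNA and is written at a short consensus, DRACH. On linear mRNAs it is best known near stop codons and in long internal exons, and on circles it has been linked to splicing, export, turnover and translation without a cap.

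The cells were wild-type C17.2, an immortalised line of mouse neural stem cells (NSCs). Controls stayed in standard oxygen, and the hypoxia/reoxygenation (H/R) group spent 12 h under 5% oxygen followed by 48 h of reoxygenation. Total RNA was immunoprecipitated with an m6A antibody and sequenced beside its input, which gave 12 samples in 4 groups of 3 (control immunoprecipitate, control input, H/R immunoprecipitate and H/R input) and peak lists for 3 control and 3 H/R libraries, lettered A to C. Values per library are given in the order A, B, C. The labels do not say whether replicates came from separate cultures, so the p-values reflect the variation among these libraries alone, and that may be technical. C17.2 is 1 line. The paper describes removal of ribosomal RNA for its RNA sequencing, and no digestion of linear RNA was described.

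The lists give no read numbers, so the depth behind a peak is unknown here, and the circRNA lists ran from 705 to 1947 peaks. Of 11 neural stem cell markers, 6 had a peak in at least 1 mRNA list, and Nes, Sox2, Sox9 and Notch1 had one in all 6. Of 6 microglia markers 1 had any peak, as did 1 of 6 astrocyte markers, 3 of 7 markers of the oligodendrocyte lineage and 2 of 8 neuron markers. A peak list shows called peaks and not expression, and an unlisted marker may still be expressed. A call is not proof of methylation either. The deposited false discovery rate of the shared peaks had a median of 80%, 100% and 100% in the control libraries. In the H/R libraries it was 62%, 78% and 71%, and 2 of the 6311 members stood at 5% or less. A single marker, Map2 of the neuron list, hosted a shared circRNA peak.

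Sequences of a few members are given here to show what the peaks contain, and each is short because the peaks themselves are not resolved below the exon. The first 4 are from regions called in all 6 circRNA lists, the next 4 from regions that every H/R list held and no control list did. Capitals mark the DRACH match nearest to the middle of the region, that is A, G or T, then A or G, then AC, then A, C or T, read on the strand of the circRNA from the mm10 genome. The Fbxw7 stretch is at chr3:84903600-84903624 (+), Anp32b at chr4:46468665-46468689 (+), Elmsan1 at chr12:84173562-84173586 (-) and Kat6b at chr14:21669851-21669875 (+). The Rnf216 stretch is at chr5:143093074-143093098 (-), Palb2 at chr7:122124556-122124580 (-), Qk at chr17:10274004-10274028 (-) and Zfp362 at chr4:128787043-128787067 (-). All 8 lie in annotated coding exons, which does not hold for every region named below. The matching stretches of Cep250, Arhgap21, Lamc1 and Bcl7a lay outside the exons of the listed transcript. That of Slc45a4 lay in an exon but not wholly in coding sequence, and those of Akap2 and another Anp32b region had no transcript model.
Fbxw7: aaaagacgacGAACTggaggctctc
Anp32b: tggatggctaTGACCgagaggacca
Elmsan1: aagcacccttGAACTctttccatgc
Kat6b: atgctgcagcAGACCagcatcagct
Rnf216: tcaccatatcTGACTcctctgatga
Palb2: atcttaggcaTGACTccagctcttg
Qk: acttacagctAAACAacttgaagca
Zfp362: ccccactcctGGACTccatcaagac
The region behind each stretch held many such matches, 26 in 922 bases of Fbxw7, 87 in 3051 bases of Kat6b, 22 in 671 bases of Palb2 and 3 in 117 bases of Qk. A match is a description of the letters and not a mapped site, and 95.2% to 97.7% of the shared peaks of a library held at least 1, against 93.9% to 96.7% of the other mRNA peaks.

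Back-splice junctions of 4 host genes show what makes the circles distinct from the mRNA. Lower case marks the last 13 bases of the circle's final exon, and capitals the first 13 bases of its first exon, which lies upstream in the gene, or is the same exon for Slc45a4. The Elmsan1 circle runs over chr12:84171460-84174423 (-), the Slc45a4 circle over chr15:73605442-73606076 (-), the Palb2 circle over chr7:122113250-122129733 (-) and the Qk circle over chr17:10238893-10282981 (-), all in mm10.
Elmsan1: tgctgcagctcagGCTCCAGGACCTG
Slc45a4: ctgttacagatagATCGTCTAGCCGC
Palb2: gcattgtgatctgTTGAAGGAAAAGC
Qk: actggtacctgcgAAATTAGCAGAGT
All 4 began at exon 2 of their transcript. The Slc45a4 circle was that single exon of 635 bases, the Elmsan1 circle joined exons 2 to 3, the Qk circle exons 2 to 4, and the Palb2 circle exons 2 to 10 of 13.

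The circles that carried shared peaks were mostly exonic, that is, built from exons of an annotated gene. Of the 991 circRNAs, 760 were exonic (76.7%), 209 were sense overlapping (21.1%), a class on the strand of a gene whose listed length runs over introns too, 19 were intronic, 2 antisense and 1 intergenic. Of the 121 circRNAs with peaks only outside the mRNA lists, 30 were exonic (24.8%) and 70 sense overlapping, a contrast that the rule itself favours, since mRNA peaks lie on exons. In all, 422 of the 991 were listed with no earlier catalogue as their source, 400 came from an earlier published catalogue and 169 from circBase.

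The genome around the ends of the circles matched ordinary splice sites. All 760 exonic circles had the acceptor AG just before their first base and the donor GT just after their last, as did 191 of 209 sense overlapping and 18 of 19 intronic ones. The 20 circles without both signals were all among those listed in no catalogue. Both ends of 739 exonic circles fell on exon borders of the transcript that the list names. At such borders these signals follow largely from the annotation and are given as a description.

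Exonic circles mostly left out the first and last exon, which lack an acceptor and a donor, so this too is a description. Of these 739, 306 began at exon 2 (41.4%), 105 at exon 3 and 110 beyond exon 10, while 6 held the first exon and none the last. They joined a median of 4 exons (quartiles 3 and 7, largest 33), and 64 were single exons. The host transcripts were long, with a median of 16 exons. The predicted exonic circle had a median of 803 bases (quartiles 495 and 1365) and spanned a median of 11959 bases of genome, whereas for sense overlapping circles the predicted length was the whole span, with a median of 16518 bases.

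**Figure D1:**
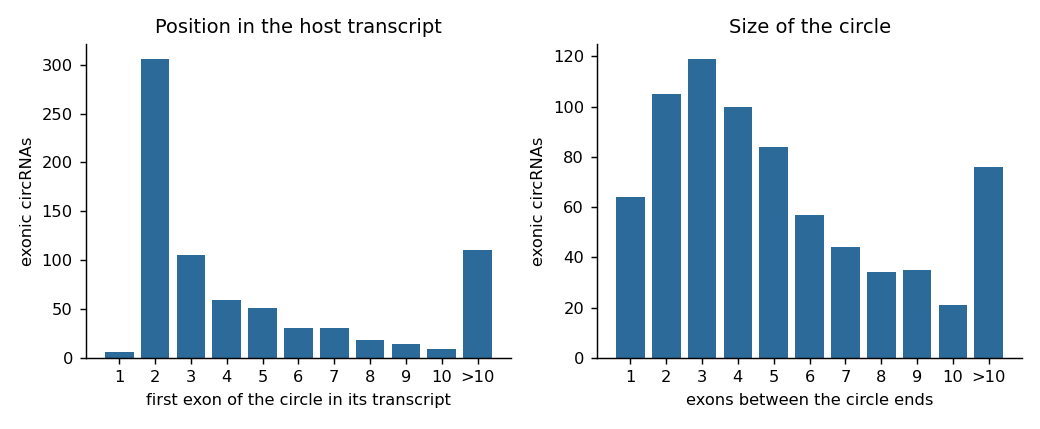
Number of exonic circRNAs with shared peaks (739 with both ends on exon borders) by the rank of their first exon in the host transcript (left) and by the number of exons between their ends (right). Exon 2 was the most frequent start, with 306 circles, and 3 exons the most frequent size, with 119.

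The shared peaks were listed at the resolution of an exon. Where the mRNA-list span could be placed on its transcript, it coincided with 1 whole exon in 91.9%, 91.6% and 93.8% of the shared peaks in the control libraries, and in 91.2%, 94.5% and 87.3% in the H/R libraries. Of the other mRNA peaks 63.1% to 76.7% did so in a library. In internal exons the shares were close to complete in both sets, 92.0% to 99.4% of shared and 84.9% to 98.0% of other peaks. A listed length is therefore mostly the length of an exon and the site within it is not given.

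Under exonic circles the circRNA list and the mRNA list mostly printed the same span. This was so for 4052 of 4650 shared exonic peaks (87.1%), and in 517 more the circRNA span lay inside the mRNA span. Under sense overlapping circles the mRNA span lay inside the circRNA span in 1084 of 1545 peaks (70.2%), and 18 had the same span. In 124 shared peaks the spans lay apart under 1 peak identifier. The host symbol was the same in both lists in 6133 of 6311 peaks (97.2%). None of the 6311 stood in an lncRNA list.

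About equal parts of the peaks reached the junction and kept to the interior of the circle. Of the 4650 exonic peaks, 2228 reached neither end (47.9%), 1127 reached only the acceptor end (24.2%), 963 only the donor end (20.7%) and 332 both. The share that reached neither end was 44.6% to 48.2% in the control libraries and 48.0% to 49.6% in the H/R libraries. A peak on the last or first exon of a circle is next to the junction, but the lists do not give reads across it.

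The first comparison asked whether more shared peaks were called after H/R. There were 914, 705 and 625 shared peaks in the control libraries, and 1360, 1142 and 1565 after H/R. Every H/R library was above every control library, with means of 748 ± 149 (SD, n = 3) and 1356 ± 212 (SD, n = 3), and the two-sided exact permutation p was 0.1, the smallest that 3 against 3 can give. With only peaks enriched 10-fold or more, the difference turned round, to -31.0 peaks (exact permutation p = 0.7). This cut left 864, 703 and 621 shared peaks in the controls and 559, 860 and 676 after H/R. Fold enrichment was lower in the H/R lists, so a fixed cut takes more peaks from them. A smaller difference was therefore likely beforehand, and the cut cannot tell whether the excess holds.

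Relative to the lists they came from, shared peaks took a similar part in both groups. They made up 84.9%, 87.1% and 88.7% of the circRNA list in the control libraries and 83.7%, 85.9% and 80.4% in the H/R libraries, overlapping ranges (exact permutation p = 0.2). Of the mRNA list they made up 7.50%, 7.89% and 7.95% in the controls and 7.27%, 8.18% and 7.10% after H/R, again overlapping (exact permutation p = 0.6). With all lists cut to the same length the mRNA share lay between 7.90% and 8.05% in all 6 libraries.

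**Figure D2:**
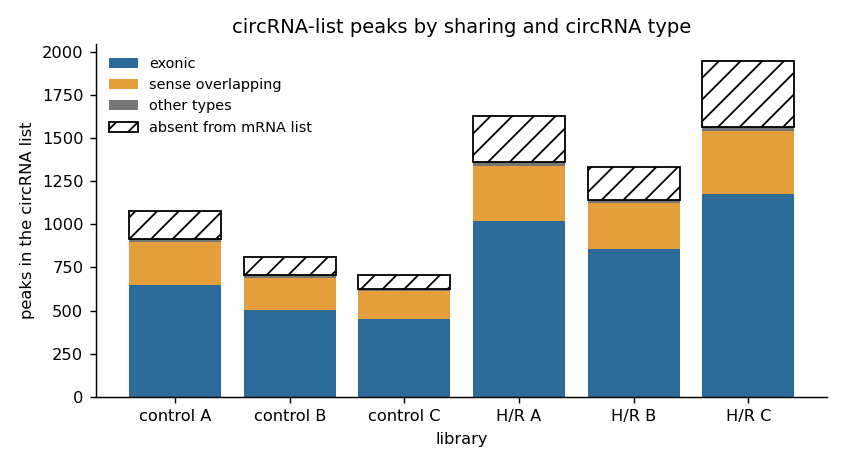
Peaks of each circRNA list, split into peaks shared with the mRNA list (exonic, sense overlapping and other circRNA types, filled) and peaks absent from it (hatched). The 3 H/R libraries held 1142 to 1565 shared peaks and the 3 control libraries 625 to 914.

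The H/R lists reached more hosts and more circles, with more peaks on each. Shared peaks lay in 524, 442 and 394 host genes in the control libraries and in 677, 607 and 754 in the H/R libraries (exact permutation p = 0.1). With lists of equal length the hosts numbered 394 to 410 in controls and 405 to 414 after H/R. Each circle carried a mean of 1.58, 1.46 and 1.45 shared peaks in the control libraries and 1.76, 1.69 and 1.80 in the H/R libraries (exact permutation p = 0.1), and 66.2% to 73.4% of circles in a control list had a single shared peak, against 59.0% to 62.1% in an H/R list.

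The makeup by circle type differed between the groups by a few percentage points. Exonic circles took 70.6%, 71.6% and 71.8% of shared peaks in the control libraries and 75.0%, 75.1% and 75.0% in the H/R libraries. Sense overlapping circles took 27.4%, 25.8% and 26.6% in the controls and 23.3%, 23.1% and 23.4% after H/R. The groups did not overlap in either share (exact permutation p = 0.1 each). With only peaks enriched 10-fold or more, a cut that fell mostly on the H/R lists, they did. Exonic circles then took 70.3%, 71.7% and 71.8% in the controls and 71.4%, 74.8% and 72.6% after H/R. The difference in the exonic share went from 3.68 to 1.67 percentage points (exact permutation p = 0.3) and that in the sense overlapping share from -3.31 to -1.28 (exact permutation p = 0.4).

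The listed spans of shared peaks were shorter in the H/R libraries. The median length in the circRNA list was 381.5, 477 and 445 bases in the control libraries and 225.5, 241 and 205 bases in the H/R libraries, with no overlap (exact permutation p = 0.1). Under exonic circles alone the medians were 204, 232 and 227 bases in the controls and 163.5, 171.5 and 155 bases after H/R. The difference of -210.7 bases came to -2.50 bases when each circRNA list was held to its best 705 peaks and each mRNA list to its best 7863. These 7 comparisons between groups were of a size at which none could pass 0.05, before or after Benjamini-Hochberg adjustment.

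The next question was how the shared peaks differ from the other peaks of the same mRNA list. The shared peaks lay mostly in the coding sequence of internal exons, a contrast that the rule itself favours, because a member lies under a listed circle and the exonic circles held a first exon 6 times and a last exon never. The shares by transcript region and exon are therefore given as a description, with no test. Their centres were in coding sequence in 86.4%, 86.9% and 88.3% of the peaks in the control libraries and in 87.5%, 88.8% and 87.0% in the H/R libraries, against 49.6% to 54.2% of the other mRNA peaks. The difference was 35.4 ± 1.40 percentage points (SD over 6 libraries), above 0 in 6 of 6 libraries. Start codons (within 100 bases) took a mean of 4.71% of shared and 11.9% of other peaks, 3'UTRs 5.20% and 20.9%, stop codons 1.48% and 6.13%, and 5'UTRs 0.858% and 8.27%.

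By exon, internal exons held 87.2%, 87.2% and 88.1% of shared peaks in the control libraries and 90.5%, 91.0% and 91.3% in the H/R libraries, and 42.9% to 51.0% of the others. Last exons held a mean of 8.34% of shared and 32.3% of other peaks and first exons 2.13% and 19.3%. Against other peaks of the same genes the excess in internal exons was 28.6 percentage points.

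**Figure D3:**
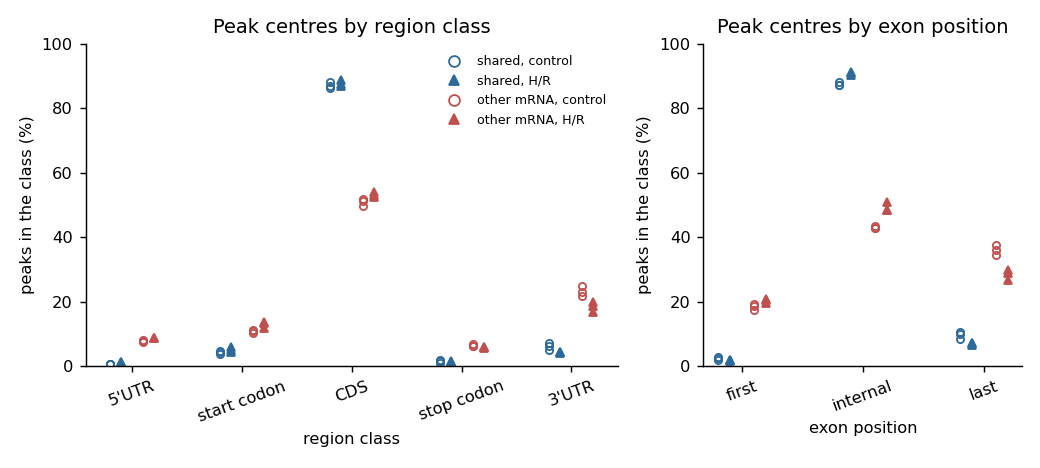
Share of peak centres (% of the peaks that could be classed) by transcript region (left) and exon position (right), for shared peaks and all other peaks of the mRNA list, 1 point per library. The 6 shared points lie between 86.4% and 88.8% in coding sequence and between 87.2% and 91.3% in internal exons, above all points of other peaks.

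The shared peaks were richer in DRACH and poorer in G and C. DRACH stood at 23.1, 23.1 and 23.3 matches per 1000 bases in the control libraries and at 23.1, 23.3 and 22.9 in the H/R libraries, against 20.1 to 20.7 in the other mRNA peaks. The difference was 2.78 ± 0.185 matches (SD over 6 libraries). Among peaks centred in coding sequence of internal exons it was 1.32, with 23.4 to 23.8 against 21.9 to 22.5, and against other peaks of the same genes it was 2.45.

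The median GC content of shared peaks was 46.0% to 46.9% in a library and that of the others 51.3% to 53.1%, a difference of -5.54 percentage points, and in internal coding exons -3.63. The transcripts under shared peaks had a median of 17 to 18 exons and those under other mRNA peaks 10 to 11.

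**Figure D4:**
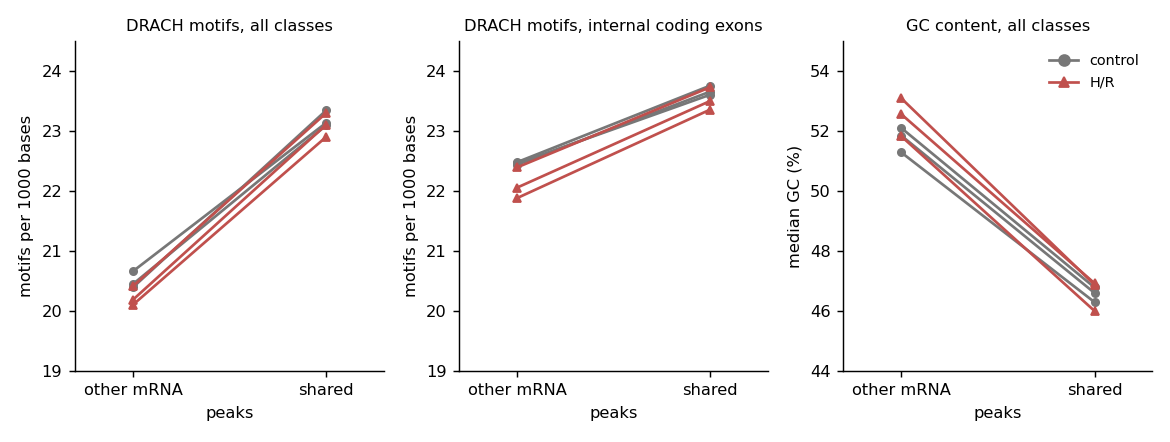
DRACH matches per 1000 bases of peak in all classes (left) and in coding sequence of internal exons (middle), and median GC content in percent (right), for shared peaks and other mRNA peaks, with 1 line per library. Each line in the first 2 panels rises towards the shared peaks and each line in the last falls; the vertical axes do not start at 0.

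Shared peaks were called with higher scores and slightly lower enrichment. The median p score (10 times -log10 of the p that the peak caller gave) was 529, 358 and 297 in the control libraries and 477, 494 and 352 in the H/R libraries, each above the other mRNA peaks of the library, at 312, 249, 207, 378, 376 and 296 in the same order. The median fold enrichment over local background was 21.6, 31.0 and 25.1 in the controls and 8.68, 14.7 and 9.04 after H/R, each below that of the other peaks, by a mean of 1.53. In internal coding exons the difference in fold was -0.574 (exact sign-flip permutation p = 0.281), and against other peaks of the same genes the difference in score was 41.3 (exact sign-flip permutation p = 0.219).

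The differences in DRACH density, GC content, p score and fold enrichment had the same sign in 6 of 6 libraries, each with an exact sign-flip permutation p of 0.03125, the smallest that 6 libraries allow, and an adjusted p of 0.03125 over the 16 measures compared. The libraries listed many of the same exons, and DRACH density and GC content are read from the genome. For these measures the p-value does not measure the spread over exons or genes, and a shared sign was likely beforehand. The rule, which favours internal coding exons, also bears on the differences over all classes. In internal coding exons the differences in DRACH density, GC content and p score kept their sign (exact sign-flip permutation p = 0.03125 each). Exon rank was not matched there, and the transcripts had a median of 18 to 19 exons under shared peaks and 16 under the others. Peak length goes with the position of the exon and is given as a description. The median length of shared peaks differed from that of other mRNA peaks by -180.3 bases, but in internal coding exons by 10.3 bases. Whether a difference changed with H/R was tested 3 against 3, and the p-values ran from 0.1 upwards (exact permutation).

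Merged over libraries, the members fell into a core present everywhere and a large set seen once. Of the 1873 regions, 511 had a peak in all 6 circRNA lists (27.3%), where 22% of the 27079 merged mRNA regions were in all 6 mRNA lists and 24% of the 2366 merged regions of the circRNA lists, members included, were in all 6 of theirs. At the other end 547 regions stood in 1 list (29.2%). Of these, 518 were in an H/R list (27.7% of all members), where 32.8% of merged mRNA regions were in 1 H/R list alone. The other 29 were in a control list (1.55%), beside 2.09% of merged mRNA regions. Regions under sense overlapping circles, which are longer, were in all 6 lists in 138 of 407 cases (33.9%), and those under exonic circles in 366 of 1431 (25.6%).

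Regions held by every H/R circRNA list and no control one (H/R-only) numbered 136, that is 7.26% of the members, and 6.21% of the merged mRNA regions and 6.34% of all circRNA-list regions met the same rule. No region was in every control list and no H/R list, and among mRNA regions 0.0628% were. When every list was held to the length of the shortest, 8 regions were H/R-only (0.905%) and 10 were control-only (1.13%), beside 1.4% and 1.27% of mRNA regions. With only peaks enriched 10-fold or more, 0.77% of the members met the H/R-only rule (9) and 1.45% the control-only rule (17), whereas for merged mRNA regions the order was the other way round, at 1.95% and 0.822%. Such a cut takes more peaks from the H/R lists, whose folds were lower, and so bears on both counts. Without control A the H/R-only count was 243 and without H/R B 276.

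**Figure D5:**
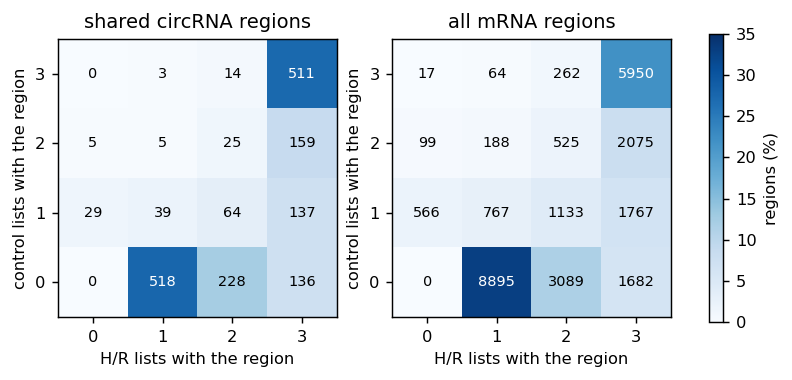
Number of merged regions (figures in cells) by how many H/R lists (horizontal) and control lists (vertical) hold them, for the shared circRNA regions (left) and all merged mRNA regions (right), with shading for the percentage of the set. The corner with 3 control and 3 H/R lists held 511 shared regions, the corner with 3 H/R and no control list 136, and the opposite corner none.

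The 10 regions of the core named here all had a p score of 3100 or more in every list and were ranked by their lowest fold enrichment. The first was a 1137-base stretch of Anp32b, a nuclear histone chaperone, at 282-, 329- and 246-fold in the control libraries and 118-, 197- and 155-fold in the H/R libraries, under a sense overlapping circle. A second stretch of the same circle, of 1287 bases, was at 112-, 115- and 83.3-fold and at 58.4-, 64.9- and 39.1-fold. In both stretches every H/R value was below every control value.

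Fbxw7, the substrate-binding part of a ubiquitin ligase and host of a well-known circle, was next. Its region stood at 132-, 122- and 129-fold in the control libraries and at 72.3-, 95.2- and 72.6-fold in the H/R libraries. Setbp1, which encodes a partner of the SET protein, had a single exon of 3448 bases as both its circle and its region, at 137-, 215- and 110-fold in the controls and 70.0-, 89.3- and 78.7-fold after H/R. Cep250, a linker protein of the centrosome, stood at 150-, 159- and 120-fold and at 65.1-, 89.6- and 65.3-fold, and its groups did not overlap either.

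The single-exon circles of Slc45a4, a membrane transporter, and Akap2, which anchors protein kinase A, were covered over their whole length of 635 and 2476 bases. Slc45a4 stood at 83.4-, 139- and 103-fold in the control libraries and at 46.6-, 59.1- and 54.4-fold in the H/R libraries. Akap2 stood at 46.3-, 61.4- and 53.0-fold and at 37.0-, 39.4- and 40.4-fold. Both show the H/R libraries below the controls.

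The remaining members of this set were Elmsan1, Kat6b (a histone acetyltransferase) and Arhgap21. Elmsan1 stood at 117-, 138- and 108-fold in the control libraries and at 77.8-, 51.8- and 103-fold in the H/R libraries. Kat6b stood at 126-, 99.5- and 92.3-fold and at 44.7-, 56.3- and 77.5-fold. Arhgap21 stood at 68.0-, 90.5- and 48.1-fold and at 38.7-, 53.3- and 41.9-fold, the 1 case of the 10 in which the groups overlapped.

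Lower enrichment in the H/R lists was general. Over the 506 regions with a shared peak in each library, the median fold enrichment was 28.4, 34.5 and 25.8 in the control libraries and 14.5, 21.0 and 15.4 in the H/R libraries (exact permutation p = 0.1). In 303 of these every H/R value was below every control value (59.9%), and in none was every H/R value above. Over the mRNA regions in all 6 lists 54.3% were lower in this sense and 0.168% higher, with medians of 30.9, 39.5 and 30.1 in the controls and 17.4, 23.5 and 19.1 after H/R. The longer H/R lists and their lower folds moved together, and the part of either in the other was not tested.

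The H/R-only regions had a median length of 155.5 bases, and the median of their lowest p score was 95.8. A region called in 3 of 6 lists is by that rule more often one near the calling threshold, so these values are not set against those of the core. Of the 127 that could be classed, 114 were centred in coding sequence and none in a 3'UTR. The 10 with the best scores are the ones named here, with the 3 H/R values in the order A, B and C.

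Lamc1, the gamma chain of laminin in the extracellular matrix, led with scores of 1084, 682 and 1050 at 4.88-, 7.55- and 6.15-fold. Bcl7a, a subunit of the SWI/SNF chromatin remodelling complex, stood at 14.3-, 16.9- and 16.8-fold, and Gatad2a, of the NuRD corepressor complex, at 4.41-, 5.34- and 5.93-fold on a circle of 1 exon of 258 bases. Nfib, a transcription factor of neural and lung development, stood at 5.00-, 10.8- and 7.14-fold. These 4 hosts also had other mRNA peaks in the control lists, between 1 and 5 in each.

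Qk encodes Quaking, an RNA-binding protein that itself promotes the formation of circles, and its exon 3 of 117 bases stood at 6.40-, 10.4- and 7.52-fold. Its mRNA lists held 1, 0 and 1 peaks in the control libraries and 3, 3 and 4 in the H/R libraries. Palb2, a partner of BRCA2 in DNA repair, stood at 14.3-, 14.9- and 13.8-fold. Rnf216, a ubiquitin ligase, stood at 5.14-, 12.2- and 6.82-fold and was the 1 host of the 10 with no peak in any control mRNA list.

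Ehbp1, which takes part in endocytosis, stood at 6.64-, 15.5- and 7.16-fold, the zinc finger gene Zfp362 at 9.29-, 13.0- and 20.1-fold, and Nploc4, a cofactor of the p97 ATPase, at 12.9-, 15.1- and 12.6-fold. Nploc4 had 1, 2 and 1 mRNA peaks in the control libraries and 2 in each H/R library. A region absent from a control list is one that was not called there, which does not show that it was unmethylated.

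Taken as genes, 60 of the 849 hosts were H/R-only in the circRNA lists (7.07%) and 362 were in all 6 (42.6%), where 4.96% and 39.5% of the 10030 genes of the mRNA lists met the same rules. No host was control-only, and 0.0698% of mRNA genes were.

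The longest regions included a gene listed as shared in the controls alone. Sfi1, which encodes a protein of the centriole, had the 2 longest merged regions, of 14193 and 11830 bases, both under 1 sense overlapping circle. It had 2, 3 and 5 shared peaks in the control libraries and none in H/R A, B or C. The Sfi1 peaks of H/R A and C, 2 in each circRNA list, were absent from the mRNA lists, and counted as calls they kept Sfi1 from being control-only. With only shared peaks as calls the control-only count was 2, both in Sfi1, chosen here after the values were seen. The long region of Filip1l was shared in control A and C, at 26.7- and 24.7-fold, and in no other library. Zfp462, of 8526 bases, and the single exon of Tcf20, of 5772 bases, both genes of nuclear proteins, were in all 6 lists.

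Hosts differed widely in how many regions they held. Of the 849, 406 had 1 region (47.8%), 209 had 2 and 1 had 17. That was Utrn, which encodes utrophin, a relative of dystrophin, with 5, 5 and 6 shared peaks in the control libraries and 13, 6 and 14 in the H/R libraries. Rabep1, an effector of the endosomal GTPase Rab5, had 12 regions, with 8, 7 and 7 shared peaks in the controls and 10 in each H/R library. Rock2, a protein kinase, had 10 regions, with 9, 5 and 6 and then 11, 11 and 12 peaks. Most mRNA peaks of these genes were shared, for Rock2 9 of 10, 5 of 6 and 6 of 7 in the controls and 11 of 12, 11 of 12 and 12 of 13 after H/R.

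Arid4b, a chromatin-binding protein, also had 10 regions, all in 1 exonic circle. Golgb1, which encodes the Golgi protein giantin, and the centrosome genes Pcm1 and Cntln had 9 each, as did Rbm33, an RNA-binding protein. Ncor1, a corepressor of nuclear receptors, and Smarcc1, a core subunit of SWI/SNF, had 8 each, of which 5 of each gene were in all 6 lists. Rbm33 had 3, 3 and 5 shared peaks in the control libraries and 8, 6 and 9 in the H/R libraries. All its mRNA peaks numbered 7, 7 and 8 in the controls and 15, 12 and 17 after H/R. Smarcc1 had 5 in each control library and 6, 6 and 8 after H/R.

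Gene lists chosen with earlier results of these data known were counted among the hosts, against 8.67% of all genes of the mRNA lists that held a shared peak. Of 39 genes linked to well-studied circRNAs, 32 had a peak in an mRNA list and 15 of these were hosts here (46.9%), with 34 regions, 17 in all 6 lists and 2 H/R-only. Of all members, 27.3% were in all 6 lists and 7.26% were H/R-only. Of the 991 circles, 400 came from an earlier published catalogue and 169 from circBase. A high share was therefore likely beforehand, and it is given as a description. Among them Hipk3, Foxo3, Nfix and Bnc2 each had 1 region, present in every list. Zeb1, a transcription factor, had 6 regions with 4, 3 and 4 shared peaks in the control libraries and 5, 5 and 6 in the H/R libraries, and Ankrd17 had 6 regions, 4 in all lists. Cdr1, also on this list, was not a host here.

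Chromatin regulators were hosts in 29 of 58 genes with an mRNA peak (50%), with 102 regions, of which 50 were in all 6 lists and 4 H/R-only. Of all members, 27.3% were in all 6 lists and 7.26% were H/R-only. Of the 58 genes, 53 had a peak in all 6 mRNA lists, where 39.5% of all genes of these lists did. Examples are Chd2, a chromatin remodeller, with 7 regions and 7, 6 and 7 shared peaks in the control libraries and 7, 7 and 6 in the H/R libraries, and Rsf1, with 7 regions and 6, 6 and 5 and then 7 in each H/R library. The comparison was not matched for gene length, exon number or number of mRNA peaks, and their part in it was not tested.

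Genes of mitosis and the kinetochore were hosts in 9 of 45 (20%), with 23 regions, 2 in all 6 lists and 5 H/R-only. Of all members, 27.3% were in all 6 lists. Cep55, which acts in the last step of cell division, had 1, 0 and 0 shared peaks in the control libraries and 3 in each H/R library. Nuf2, of the outer kinetochore, had none in the controls and 2, 3 and 3 after H/R, and Kif20b, a mitotic kinesin, had 1, 1 and 0 and then 4, 3 and 4. Top2a, a topoisomerase, did not follow them, with 1, 2 and 2 shared peaks in the controls and 2, 1 and 1 after H/R. The 5 H/R-only regions lay in Kif20b, Nuf2 and Cep55, and 5 of 23 stood beside 7.26% of all members. All mRNA peaks of Kif20b numbered 3, 3 and 1 in the controls and 9, 11 and 11 after H/R. Those of Nuf2 numbered 1, 0 and 0 and then 4 in each H/R library, and those of Cep55 1, 0 and 0 and then 3, 3 and 4. Kif23, Prc1, Aspm, Casc5 and Nuf2 had no shared peak in any control list and were hosts through H/R lists alone.

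The remaining lists were small, and at their sizes a share like the 8.67% of all genes would also give few hosts. Of 22 m6A machinery genes with an mRNA peak 1 was a host (4.55%), the reader protein Fmr1, with 1 shared peak in H/R A and 1 in H/R C. Of 15 factors of circRNA formation and turnover, Mbnl2 and Hnrnpm were hosts (13.3%), and Qk was not counted because the list held it under another symbol. Of 31 extracellular matrix and adhesion genes, Lamc1 and Fat1 were hosts (6.45%). None of the 18 genes of the hypoxia pathway with an mRNA peak hosted a shared circRNA peak, nor did any of the 6 neural stem cell markers with an mRNA peak.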

How the data were processed

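The authors trimmed reads with cutadapt (1.9.3), aligned them with HISAT2 (2.0.4) to mm10, used MACS on each library to call peaks of immunoprecipitate over input, and annotated the parts on exons. The deposited p score is 10 times -log10 of the MACS p, the deposited fold enrichment is a ratio to local background and false discovery rates were deposited as percent, and at 5% or less held 2 of the 6311 members. The predicted circRNA lengths are the authors' own deposited values in bases. All were used per library as deposited.

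Members were found by peak identifier and merged by an overlap of at least 1 base on 1 strand. The mRNA regions set beside them were merged in the same way but without regard to strand. A merged member counted as present in a circRNA list when any peak of that list overlapped it on its strand, shared or not. Peak centres were classed on GENCODE and RefSeq models of mm10 with 100 bases around start and stop codons; 89.6% to 90.9% of shared and 91.7% to 92.1% of other peaks of a library could be classed, and the rest, mostly under transcript names without a model here, were left out of class shares. Groups came from the labels, and the list letters are not tied to replicate numbers. Tests were two-sided exact permutation tests, 3 against 3 between groups, and sign flips over 6 libraries within, with Benjamini-Hochberg adjustment over 16 measures, of which those of transcript region and exon position are favoured by the rule and were not read as tests; counts of regions had no test. Python (pandas, numpy, pysam) was used, and the counting was tested on simulated data. The members and gene lists were chosen with earlier results of these data known. Named genes were the 10 hosts with most regions, the 10 regions of the core and of the H/R-only set with the highest lowest score (ties by fold), any control-only regions, the 5 longest, and hosts in the gene lists. GC content, exon length, exon number, whole-exon shares, and the comparisons within internal coding exons, with the same genes and with exonic circles only, were added after seeing the data.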

Additional observations from a re-analysis of the deposited data

How the results depend on the processing

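No paired analysis was possible because the letters of the lists match no replicate number in the labels. The excess of shared peaks after H/R turned to -31.0 for peaks enriched 10-fold or more, a cut that fell mostly on the H/R lists. The difference in the mRNA share turned to 0.0254 points with lists of equal length and to 0.160 with coordinates in place of identifiers, and that in the circRNA share to 1.37. In internal coding exons the length and exon length differences turned to 10.3 and 9.50 bases and the fold difference weakened to -0.574; against other peaks of the same genes length turned to 14.3 bases and the score difference weakened to 41.3. H/R-only regions numbered 9 (10-fold or more), 8 (equal lists) and 60 (host genes). Control-only regions numbered 17 (10-fold or more), 10 (equal lists), 2 with any mRNA peak or only shared peaks as calls, and 0 with a p score of at least 100, 50% overlap, host genes or exonic circles only. The cause was not tested. Leaving out 1 library gave 151 to 276 H/R-only and 1 to 4 control-only regions, the fewer lists a rule asks for letting more regions meet it, and turned no other difference. With 5 libraries the sign-flip test cannot reach 0.05. The lists give no read numbers, so what depth limits is unknown.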
